A study of Oryza sativa with 12 samples.

Results

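In rice leaves sampled at the booting stage, 38 long non-coding RNAs (lncRNAs) were measured in Kongyu131 and were at or next to 0 in every library of Dongnong422. They were chosen by their levels. Each is the only listed transcript of its locus, has a mean of at least 0.5 FPKM over the 6 Kongyu131 libraries, and is under 0.1 FPKM in each of the 6 Dongnong422 libraries. FPKM is a level corrected for transcript length and for the mapped fragments of the library. The deposited tables list 1485 lncRNA transcripts, of which 828 stand alone in their locus. Of these 828, 585 reach the Kongyu131 level that the rule asks for, and 38 of them meet the Dongnong422 condition too. The difference between the cultivars therefore defines the set, and its size is given below as a description with no test.

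Leaf RNA of 2 cultivars was sequenced in 4 groups of 3 libraries, Kongyu131 cold, Kongyu131 control, Dongnong422 cold and Dongnong422 control. Cold means 13 days at 17 °C in a lit incubator (16 h light, 8 h dark). The labels attach that protocol to the control libraries too and give no temperature for them, so temperature and incubator cannot be told apart. A leaf was taken at random from each bucket of plants, and nothing states that the replicates are separate plants. The p-values therefore reflect the spread of these samples alone, and that spread may be technical. The tables hold no protein-coding genes, so the leaf label could not be checked against marker genes.

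LncRNAs are transcripts that are not translated into a protein. Long intergenic non-coding RNAs (lincRNAs) lie between protein-coding genes, and antisense lncRNAs are read from the other strand of a gene. In plants, lncRNAs of both classes are known that act on chromatin, on neighbouring genes or as decoys of small RNAs, and antisense transcripts at a flowering repressor of Arabidopsis take part in its silencing by cold. LncRNAs often differ in expression between varieties of a species. The tables give the transcripts described here neither a gene symbol nor a position, so no role could be looked up for them. They are named by identifier and locus only.

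The set was made up mostly of lincRNAs, with 34 lincRNAs (89.5%) and 4 antisense lncRNAs (10.5%). Among the 547 other single-transcript lncRNAs with a Kongyu131 mean of at least 0.5 FPKM, 336 were lincRNAs (61.4%) and 211 were antisense (38.6%). Class was not used by the rule, and the shares are given without a test. With the cultivars exchanged in the rule, 53 single-transcript lncRNAs were found only in Dongnong422, of which 40 were lincRNAs (75.5%). Outside single-transcript loci, 10 more transcripts met the 2 level conditions, 4 of them lincRNAs. Those share a locus with other transcripts, among which the fragments have to be divided, and they are not described further.

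The values that defined the set were far apart in the cultivars. In Dongnong422, 33 of the 38 lncRNAs were listed at 0 in all 6 libraries, and 7 of the 228 values of the set in that cultivar were above 0, from 0.00556 to 0.0935 FPKM. These 7 values belong to 5 lincRNAs. LNC_000102 (XLOC_005572) had 0.0935 and 0.0447 FPKM in control replicates 2 and 3, and LNC_001110 (XLOC_042755) had 0.0622 FPKM in cold replicate 3 and 0.0440 FPKM in control replicate 2. LNC_001263, LNC_001462 and LNC_000788, named after their values were seen, each had a value above 0 in a single cold library. A listed 0 may stand for an estimate that failed rather than for missing reads, so "only in Kongyu131" here says what the tables list.

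Few lncRNAs lay near the thresholds. Just inside the Dongnong422 limit were LNC_000102 and LNC_001110, whose highest values in that cultivar are given above. Just outside it, among single-transcript lncRNAs at the required Kongyu131 level, were the lincRNA LNC_000958 (XLOC_035223) and the antisense lncRNA LNC_000752 (XLOC_028127), with highest values of 0.233 and 0.272 FPKM. At the level threshold, the lincRNAs LNC_001106 (XLOC_042425) and LNC_000398 (XLOC_015950) lay just inside with Kongyu131 means of 0.531 and 0.658 FPKM. The antisense lncRNAs LNC_001410 (XLOC_055350) and LNC_001169 (XLOC_044849) lay just outside with 0.389 and 0.286 FPKM.

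**Figure D1:**
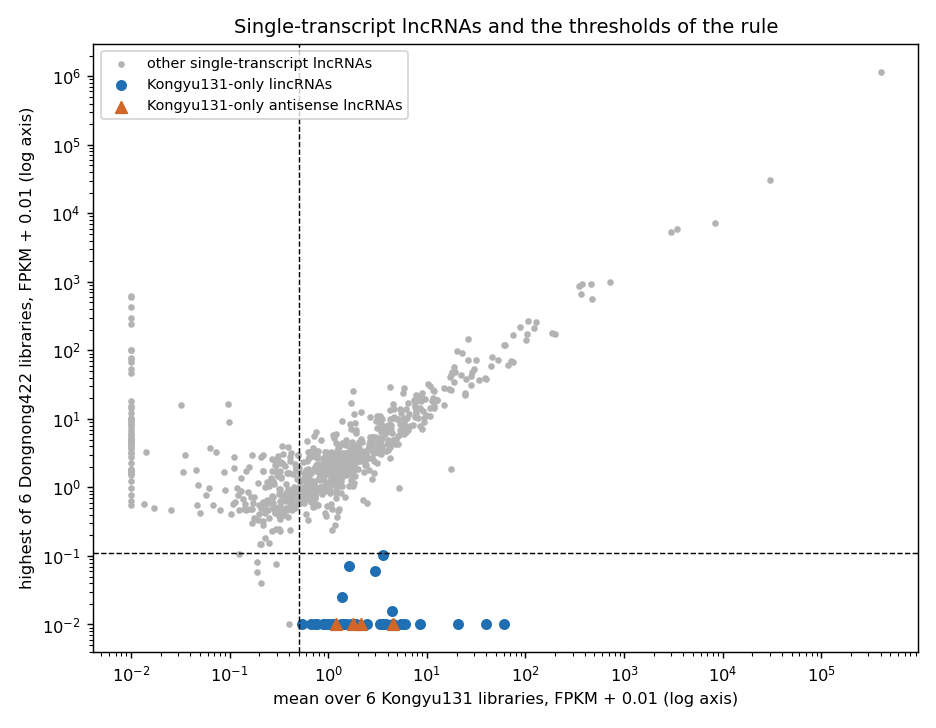
Mean FPKM over the 6 Kongyu131 libraries (horizontal) against the highest FPKM of the 6 Dongnong422 libraries (vertical) for 828 single-transcript lncRNAs, with 0.01 FPKM added for the log axes. Dashed lines mark the thresholds of 0.5 and 0.1 FPKM, and the 38 lncRNAs below and to the right of them are coloured by class, with 33 on the line that stands for 0.

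Within Kongyu131 the set spanned levels of 0.531 to 60.4 FPKM, with a median of 1.73 FPKM. The other 547 single-transcript lncRNAs at or above 0.5 FPKM had a median of 1.69 FPKM. A mean of 10 FPKM or more was reached by 3 of the 38 (7.89%) and by 68 of the 547 (12.4%). Between 3 and 10 FPKM there were 11 of the 38, between 1 and 3 FPKM 17, and under 1 FPKM 7. The lncRNAs were detected in nearly every Kongyu131 library. Of the 38, 37 were above 0 in all 6, 36 were at 0.1 FPKM or more in all 6, and 16 were at 1 FPKM or more in all 6. The exceptions at 0.1 FPKM were LNC_000260 (XLOC_012497), listed at 0 in control replicate 1, and LNC_001106, listed at 6.04e-06 FPKM in cold replicate 3. Read numbers could not be recovered from the FPKM values, so depth is unknown and low levels carry no counting interval.

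The highest lncRNA of the set was the lincRNA LNC_000414 (XLOC_016383). It had 73.6, 60.3 and 103 FPKM in the cold libraries and 56.7, 32.4 and 36.3 FPKM in the control libraries of Kongyu131, and it ranked 26 of the 1485 listed lncRNAs by its mean in that cultivar. All 3 cold values were above all 3 control values. The lincRNA LNC_001030 (XLOC_038619) had 23.9, 57.0 and 32.6 FPKM in cold and 34.3, 56.1 and 35.3 FPKM in control libraries, which overlapped, and ranked 30. Its log2 change, cold over control, was −0.20 on the log2(FPKM + 0.1) scale (95% interval −1.08 to 0.67). The 38 lncRNAs summed to 176, 207 and 228 FPKM in the cold libraries and to 220, 215 and 198 FPKM in the control libraries, which overlapped. The lincRNAs LNC_000414 and LNC_001030 carried 55.4% to 59.5% of the summed FPKM of the 38 in the cold libraries and 36.2% to 41.4% in the control libraries. Without them the sums were 78.5, 89.8 and 92.5 FPKM in cold libraries and 129, 127 and 126 FPKM in control libraries, and most of that difference came from LNC_000318, which averaged 8.51 FPKM in cold and 33.2 FPKM in control libraries.

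Of the other lincRNAs with the highest levels, LNC_000318 (XLOC_013824) is described with the cold change below. LNC_001409 (XLOC_055241) had 13.1, 11.6 and 5.25 FPKM in cold and 6.62, 9.26 and 5.03 FPKM in control libraries. Cold replicate 3 was the low one, within the range of the controls. Its log2 change was 0.45 (95% interval −0.50 to 1.41), and 0.86 without that library, 0.21 and 0.29 without cold replicates 1 and 2, and 0.24 without control replicate 3. LNC_000494 (XLOC_019000) had 6.39, 7.87 and 8.93 FPKM in cold and 3.80, 2.72 and 6.40 FPKM in control libraries, with an overlap between cold replicate 1 and control replicate 3 only. Its log2 change was 0.90 (95% interval 0.08 to 1.72, limma adjusted p = 0.183, by the Benjamini-Hochberg method over the 1315 lncRNAs tested).

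The 4 antisense lncRNAs had means of 1.20 to 4.56 FPKM. LNC_000734 (XLOC_027933) had 3.98, 3.65 and 5.41 FPKM in cold and 4.94, 3.06 and 6.35 FPKM in control libraries, ranges that overlapped. LNC_000251 (XLOC_012271) had 0.816, 0.824 and 0.670 FPKM in cold and 1.73, 6.23 and 2.44 FPKM in control libraries. Its cold values were close together and below all controls, and control replicate 2 was far above the other two. LNC_001377 (XLOC_053846) had 1.36, 0.652 and 3.76 FPKM in cold and 2.13, 1.38 and 1.36 FPKM in control libraries, so its cold libraries held both its highest and its lowest value. LNC_001022 (XLOC_038272) had 1.27, 2.52 and 0.804 FPKM in cold and 0.527, 0.483 and 1.57 FPKM in control libraries, which overlapped.

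**Figure D2:**
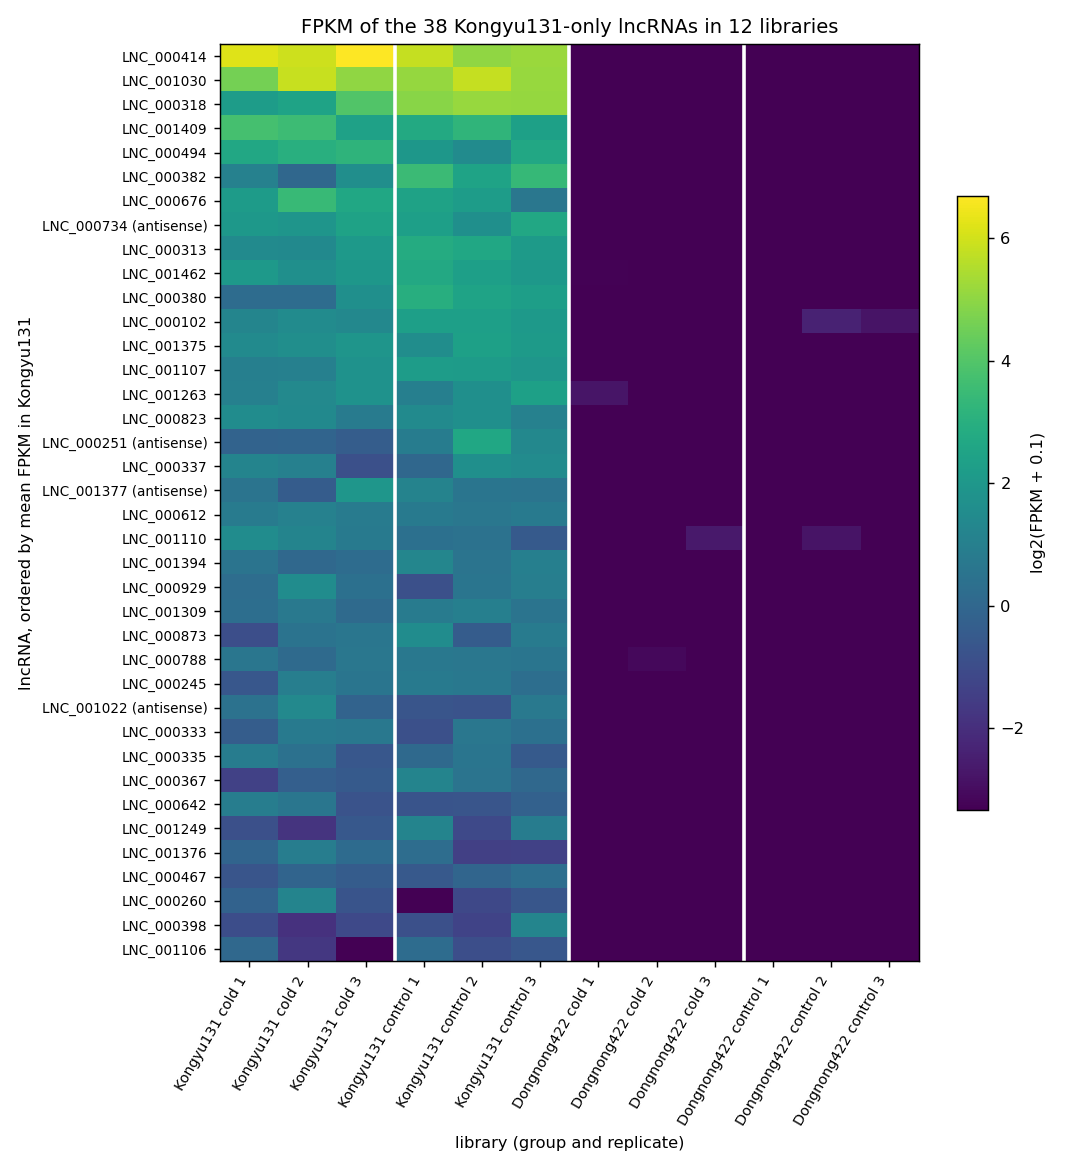
Level of the 38 lncRNAs (rows, ordered by mean in Kongyu131) in the 12 libraries (columns, by group and replicate), as log2(FPKM + 0.1). The 6 Kongyu131 columns are filled in almost every row, and the 6 Dongnong422 columns are at the lowest colour except for the few low values of LNC_000102, LNC_001110, LNC_001263 and LNC_000788; the value of LNC_001462, 0.00556 FPKM, is too low to see.

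Replicates of the set spread widely. The median coefficient of variation (SD over mean, n = 3) was 41.3% in cold and 32.9% in control libraries, against 32.6% in cold and 29.5% in control libraries for the 547 other lncRNAs. For the 36 lncRNAs at 0.1 FPKM or more throughout, the highest of the 6 libraries stood at 1.34 to 13.2 times the lowest, with a median of 3.29 times. The steadiest was the lincRNA LNC_000612 (XLOC_022899), with 1.72, 1.99 and 1.68 FPKM in cold and 1.59, 1.49 and 1.59 FPKM in control libraries, singled out after its values were seen. Its cold values lay just above its controls.

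The cold change within Kongyu131 was tested, since the rule used the mean of the cultivar over both treatments. A lncRNA could still pass the rule through the treatment where it was higher. This holds for LNC_000260 (means of 1.16 FPKM in cold and 0.296 FPKM in control libraries) and LNC_001106 (0.382 and 0.679 FPKM). It also holds for LNC_000398 (0.320 and 0.997 FPKM) and LNC_001249 (XLOC_049294, 0.400 and 1.43 FPKM), the last named after its values were seen. None of them reached a limma adjusted p under 0.05. The fit used the 6 Kongyu131 libraries. The rule keeps the Dongnong422 values of the set near 0. With all 12 libraries in the fit the SE of the cold change was smaller for 33 of the 38 lncRNAs and larger for 5. The same count over all lncRNAs was not made, so these numbers do not show an effect particular to the set. The fit of all 12 libraries called 4 of the 38, beside 8.21% of all lncRNAs. Nothing is read from it because its spread rests in part on values the rule used. Of the 38 lncRNAs, 1 fell and 0 rose at a limma adjusted p under 0.05. That is 2.63% of the set, beside 3.35% of all 1315 lncRNAs tested (44, of which 32 fell, 2.43%, and 12 rose, 0.913%). The share in the set is thus close to that of all lncRNAs. At an unadjusted p under 0.05, 8 of the 38 (21.1%) were lower in the cold, beside 14.4% of all lncRNAs, and 3 (7.89%) were higher, beside 7.07%. Of the 547 other single-transcript lncRNAs with a Kongyu131 mean of at least 0.5 FPKM, which are closer to the set in level, 22.3% were lower and 11.5% were higher at that p, and 6.4% were called.

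The lncRNA that fell was LNC_000318, a lincRNA and the third most abundant of the set. It had 4.56, 5.50 and 15.5 FPKM in the cold libraries and 30.3, 34.9 and 34.5 FPKM in the control libraries. The groups did not overlap, and cold replicate 3 stood nearest to the controls. Its mean was 8.51 ± 6.04 FPKM in cold and 33.2 ± 2.56 FPKM in control leaves (SD, n = 3 each). On the log2(FPKM + 0.1) scale it fell by 2.17 (SE 0.448, limma adjusted p = 0.0488), which is 4.49-fold lower. The direction was the same under the 14 alternatives run on the 6 Kongyu131 libraries, with log2 changes of −2.70 to −1.83. The call was narrow and ended under 11 of them (adjusted p from 0.0576 to 0.154). These were 0.01 FPKM as pseudocount, no filter, both scalings, no variance trend, the replicate block, and leaving out any control replicate or cold replicate 1 or 2. Without cold replicate 3 its adjusted p was 0.00886.

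LNC_000382 (XLOC_015704), a lincRNA, had the most negative log2 change of the set on the log2(FPKM + 0.1) scale and did not pass. It was at 2.01, 0.903 and 2.97 FPKM in cold and 11.3, 5.50 and 10.5 FPKM in control libraries, with no overlap. Its log2 change was −2.24 (SE 0.475, limma adjusted p = 0.0507), 4.71-fold lower. Over the 14 alternatives on the 6 libraries the adjusted p ran from 0.0306 to 0.147 and was under 0.05 in 3. Its place depends on the pseudocount, since LNC_001106 was lower with 0.01 FPKM (−2.33, against −2.30 for LNC_000382) and LNC_000318 was lower with 1 FPKM (−2.02, against −1.78). It depends on the libraries too. LNC_000318 was lower than LNC_000382 without control replicate 1 or 3 and without cold replicate 2 or 3, and higher without control replicate 2 or cold replicate 1.

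Of the 38, 8 had every cold library below every control library (21.1%, beside 17.8% of all 1315 lncRNAs), and 3 had every cold library above every control (7.89%, beside 8.97%). Among the 547 other lncRNAs the shares were 24.5% and 11.5%. Of the 8, LNC_000318, LNC_000382 and LNC_000251 are given above, and those outside the rule for named lncRNAs were named after their values were seen. The lincRNA LNC_000380 (XLOC_015655) had 1.05, 1.07 and 3.04 FPKM in cold and 7.65, 5.52 and 4.76 FPKM in control libraries (log2 change −1.88, SE 0.443, limma adjusted p = 0.0632). Its cold replicate 3 again stood nearest to the controls. The antisense LNC_000251 had a log2 change of −1.83 (SE 0.468, limma adjusted p = 0.0729), and without control replicate 2, its high one, the change was −1.31. With a pseudocount of 1 FPKM it was −1.21.

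The lincRNA LNC_000102 was tight within groups, at 2.23, 2.78 and 2.46 FPKM in cold and 4.95, 4.94 and 4.20 FPKM in control libraries. Its log2 change was −0.89 (95% interval −1.47 to −0.31, limma adjusted p = 0.0969). The lincRNA LNC_000313 (XLOC_013556) had 2.69, 2.62 and 4.17 FPKM in cold and 7.13, 6.15 and 4.32 FPKM in control libraries, and cold replicate 3 and control replicate 3 nearly met. LNC_001107 (XLOC_042443) had 1.93, 1.98 and 3.30 FPKM in cold and 4.59, 4.39 and 3.76 FPKM in control libraries, again with cold replicate 3 nearest to the controls. LNC_000367 (XLOC_014992) had 0.279, 0.711 and 0.611 FPKM in cold and 2.20, 1.34 and 0.944 FPKM in control libraries. The log2 change was −0.87 for LNC_000313 (95% interval −1.61 to −0.14, limma adjusted p = 0.155), and −0.55 with quantile normalization. It was −0.83 for LNC_001107 (95% interval −1.53 to −0.14, limma adjusted p = 0.155). It was −1.33 for LNC_000367 (95% interval −2.35 to −0.30, limma adjusted p = 0.133), and −0.68 when 1 FPKM was added in place of 0.1. In 5 of the 8 lncRNAs, cold replicate 3 was the highest of the cold libraries, as in 14 of the 38. No such count was made over all lncRNAs. The size factors of median-ratio scaling, which divide the values of each library, were 0.906, 0.884 and 1.05 for cold replicates 1, 2 and 3. The values given here are unscaled, so the 5 do not show a trait particular to these lncRNAs. With cold replicate 3 left out, 3 of the 38 were called (7.89%), beside 60 of all 1315 lncRNAs (4.56%). The 3 were LNC_000318, LNC_000382 and LNC_000380, all lower in the cold.

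On the other side, the 3 lncRNAs with all cold libraries higher were LNC_000414, LNC_001110 and LNC_000612, all lincRNAs, and none passed the test. LNC_001110 had 2.84, 2.17 and 1.63 FPKM in cold and 1.21, 1.28 and 0.610 FPKM in control libraries (log2 change 1.06, SE 0.376, limma adjusted p = 0.153). Adding 1 FPKM in place of 0.1 gave 0.66. The log2 change of LNC_000414 was 0.93 (SE 0.322, adjusted p = 0.149), and that of LNC_000612 was 0.20 (SE 0.259, adjusted p = 0.692), with 0.35 and 0.36 under median-ratio scaling and quantile normalization, 0.13 with 1 FPKM added and 0.12 without cold replicate 2. On the log2(FPKM + 0.1) scale the largest positive changes of the set were in lncRNAs of low level whose groups overlapped. LNC_000260 had 0.779, 2.18 and 0.513 FPKM in cold and 0, 0.353 and 0.534 FPKM in control libraries, with a log2 change of 1.81 (SE 0.786, adjusted p = 0.238). That change was 0.68 and 2.94 with pseudocounts of 1 and 0.01 FPKM, and 1.00 without control replicate 1, where the lncRNA was listed at 0. LNC_001376 (XLOC_053703) had 0.832, 1.79 and 1.04 FPKM in cold and 1.08, 0.276 and 0.280 FPKM in control libraries, with a log2 change of 1.19 (SE 0.536, adjusted p = 0.251). Adding 1 FPKM brought it to 0.54.

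**Figure D3:**
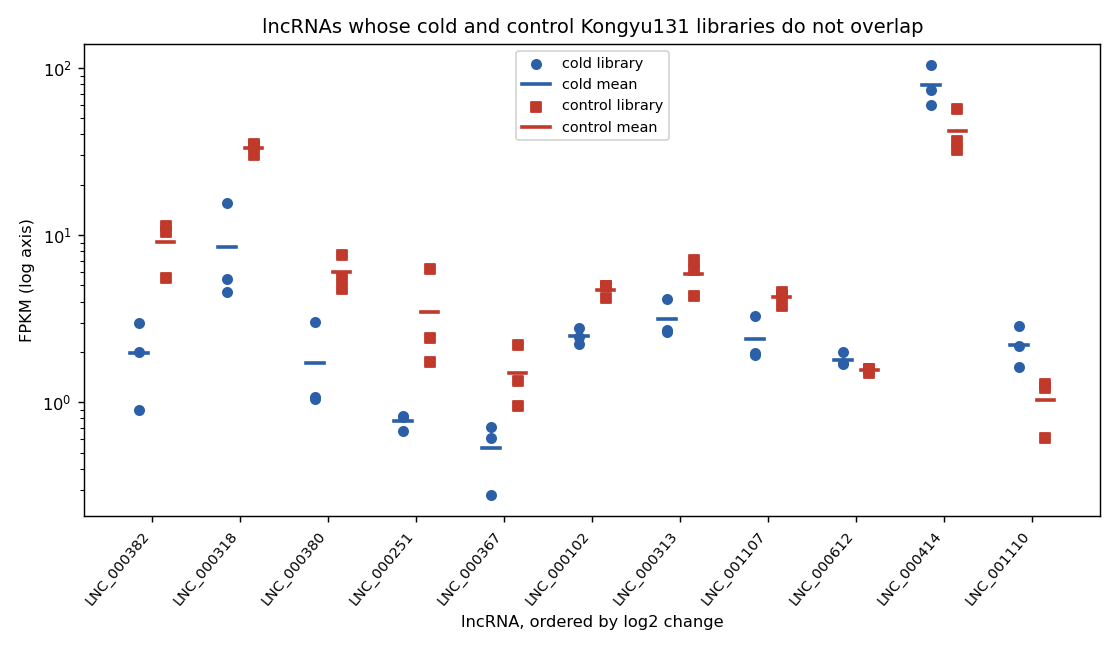
FPKM (log axis) of the 11 lncRNAs of the set whose Kongyu131 cold and control libraries do not overlap, with circles for cold libraries, squares for control libraries and lines for the means of 3. The 8 lncRNAs on the left are lower in the cold and the 3 on the right are higher, and LNC_000318 alone has an adjusted p under 0.05.

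Across the 38, log2 changes ran from −2.24 to 1.81 with a median of −0.28, against −0.14 over all 1315 lncRNAs and −0.22 over the 547 other single-transcript lncRNAs of at least 0.5 FPKM. The change was below 0 in 25 (65.8%, beside 57.1% of all lncRNAs and 59.6% of the 547) and above 0 in 13. It reached 2-fold in 7 that were lower (18.4%, beside 17.3% of all lncRNAs and 19.7% of the 547). It reached 2-fold in 3 that were higher (7.89%, beside 11.6% and 12.4%). The 7 include LNC_001249 and LNC_001106 and the 3 include LNC_000260, which passed the rule through the treatment where they were higher. Scaling between libraries moved these values. With median-ratio scaling, the median over all lncRNAs was −0.01, the median of the set was −0.13, and 22 of the 38 were below 0. Of all lncRNAs, 14 then rose and 16 fell, and with quantile normalization 8 rose and 7 fell, against 12 and 32 as deposited.

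Among the 34 lincRNAs the median log2 change was −0.30 and 1 was called, and among the 4 antisense lncRNAs the changes were −1.83 (LNC_000251), −0.09 (LNC_000734), −0.06 (LNC_001377) and 0.80 (LNC_001022), with none called. The change of LNC_001022 was 0.39 and 0.53 without cold or control replicate 2, 1.29 without control replicate 3, and 0.44 with a pseudocount of 1 FPKM. The 19 lncRNAs whose change on the log2(FPKM + 0.1) scale is not given above, all lincRNAs, had means of 0.531 to 5.44 FPKM and log2 changes of −1.42 to 0.97, with limma adjusted p-values from 0.262 to 0.876. Their 95% intervals all included 0. The lowest bound among them was −3.12 and the highest was 2.23, each the bound of a single lncRNA. An interval that includes 0 does not show that a lncRNA was unchanged.

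**Figure D4:**
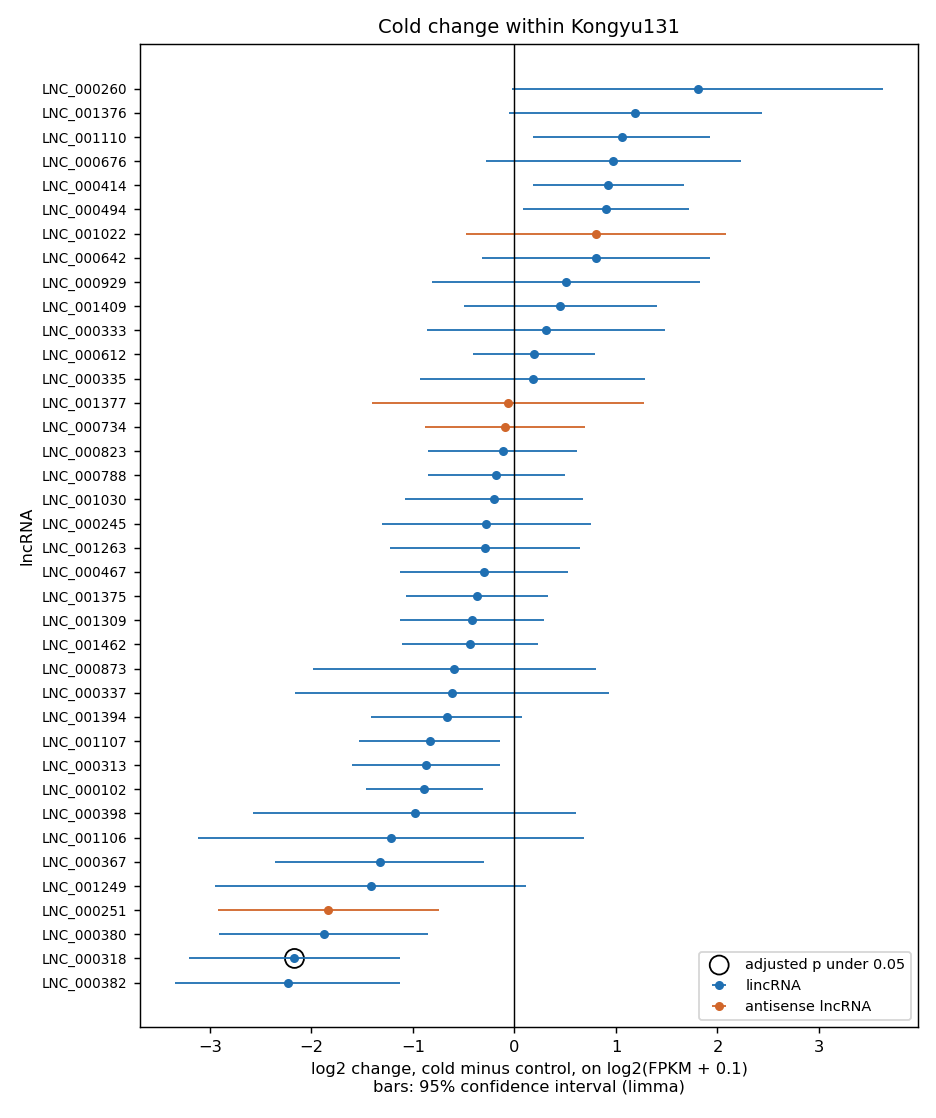
Log2 change of the 38 lncRNAs, cold minus control within Kongyu131, on the log2(FPKM + 0.1) scale, with 95% confidence intervals from limma over 3 cold and 3 control libraries. Points run from LNC_000260 at 1.81 to LNC_000382 at −2.24, and the circled LNC_000318 is the one with an adjusted p under 0.05.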

How the data were processed

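Per the labels' protocols, total leaf RNA was depleted of ribosomal RNA before strand-specific library preparation (NEBNext Ultra Directional). The submitters' processing notes name TopHat2 (2.0.9) and Cufflinks (2.1.1). Settings, genome build, annotation, use of strand and the way lncRNAs were classed are not given in the sources. Reads of the gene on the other strand may therefore be part of an antisense value. The authors deposited FPKM values per library for the same 1485 transcripts in 12 tables, with a locus, a class and no gene symbol.

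The members and the choice of tests were made with earlier results of these data known. FPKM values are not counts. The most frequent ratio of low values between 2 libraries was shared by at most 10.4% of the single-transcript lncRNAs with low values in both. Whole reads were therefore not recovered, and depth is unknown. Values were used unscaled as log2(FPKM + 0.1), which understates changes of low lncRNAs, after removal of 170 transcripts whose mean over the 6 Kongyu131 libraries was under 0.1 FPKM. All 38 members passed. Cold was compared with control in those 6 libraries with limma 3.58.1 in R 4.3.3 (empirical Bayes with a mean-variance trend), two-sided, with Benjamini-Hochberg adjustment over all 1315 lncRNAs left. Named by rule were the 5 highest members of each class (4 antisense exist), the 2 largest rises and falls, and those next to the thresholds. Others are said to be named after their values were seen. Alternatives were pseudocounts, filters, scalings, no trend, all 12 libraries, the replicate number as a block, and leaving out each library. Sequences and positions were not used here.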

Additional observations from a re-analysis of the deposited data

How the results depend on the processing

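The call of LNC_000318 rests on several choices. The count of the 38 lncRNAs called by limma was 2 (5.26%) with a pseudocount of 1 FPKM, beside 39 of all 1315 lncRNAs (2.97%). It was 3 (7.89%) with a filter at a mean of 0.5 FPKM, beside 55 of the 825 lncRNAs then tested (6.67%). With all 12 libraries it was 4 (10.5%), beside 108 of all lncRNAs (8.21%). That fit takes its spread partly from Dongnong422 values that the rule fixed near 0, so its calls support nothing here. The count was 0 with a pseudocount of 0.01 FPKM, no filter, median-ratio scaling, quantile normalization, the trend left out or the replicate block, with 10 to 12 of the 38 (26.3% to 31.6%) and 19.1% to 22.6% of all lncRNAs at an unadjusted p under 0.05. All lncRNAs called were then 10, 11, 30, 15, 11 and 3 (0.228% to 2.29%). Without filter 1485 lncRNAs were tested in place of 1315, and the unadjusted limma p of LNC_000318 was 0.00657 in place of 0.00147. Why the calls ended was not tested. Leaving out a library gave 0 to 3 of the 38 and 2 to 60 of all lncRNAs (0.154% to 4.56%). At an unadjusted limma p under 0.05 there were 7 to 12 of the 38 (18.4% to 31.6%), beside 17.3% to 23.8% of all lncRNAs. The highest counts called, 3 (7.89%) and 60 (4.56%), came without Kongyu131 cold replicate 3. Samples that share a replicate number did not deviate together over the lncRNAs tested (r = −0.01, 0.03 and −0.11 in the 3 pairs). Whether the numbers pair the samples is not stated. These values cannot settle it, since a deviation shared by few lncRNAs would not show in them. Changes near 0 turned sign, none of them called. Those given next are examples from the lncRNAs described above and not the full list. LNC_000734 was at 0.0693 with median-ratio scaling, 0.22 with quantile normalization and −0.38 to 0.14 without single libraries. LNC_001377 was at 0.0265 with a pseudocount of 1 FPKM, 0.0937 and 0.115 with these scalings and −0.69 to 0.49 without single libraries. LNC_001030 was at −0.55 to 0.0788 without single libraries. With median-ratio scaling over 12 libraries the rule found the same 38 lncRNAs, and over transcripts of any locus it found 48. Unknown depth limits all low values.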

Other observations

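Locus numbers were looked at after the other values were seen. The numbers of the 38 loci ran from 5572 to 57450, and whether they follow position on the chromosomes is not stated in the labels or tables. Between 10000 and 19999 lay 15 of the 38, which is 12.8% of the 117 single-transcript lncRNAs in that range with a Kongyu131 mean of at least 0.5 FPKM. Below 10000 lay 1 of 95 such lncRNAs (1.05%), and the other ranges of the same width held 4.55% to 9.3%. The 4 lncRNAs of the set with the most negative cold changes on the log2(FPKM + 0.1) scale, LNC_000382, LNC_000318, LNC_000380 and LNC_000251, all have locus numbers in the range from 10000 to 19999. So does LNC_000260, which has the most positive change of the set, and so do LNC_000414 and LNC_000494, whose changes are positive too. With a pseudocount of 0.01 FPKM the most negative change was that of LNC_001106, whose locus number lies outside that range. In the order of the 1039 listed locus numbers, 5 of the 38 stood next to another lncRNA of the set. No such count was made for other lncRNAs, so the 5 do not show that the set is clustered. These counts were not tested.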
